A study of Homo sapiens with 6 samples.

Results

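DNA replication and S phase genes were examined in A549 cells, a human lung adenocarcinoma line, after exposure to rhSP-D, a recombinant form of human surfactant protein D. The set holds 46 genes chosen by name. Each was found as a row of the deposited count table of 57773 genes, and all 46 had enough counts to be tested. Treated cells were kept for 48 h with rhSP-D at 10 µg/ml, and vehicle cells with the same volume of the buffer used to elute the protein. Each group held 3 libraries of poly(A) RNA. Both groups are the same unmodified line in RPMI-1640 medium with fetal bovine serum, so the data describe 1 tumour line and no normal lung cells. Whether the triplicates came from different cultures is not stated in the sources used here; the p-values then reflect library-to-library spread, which may be technical.

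Replication starts when the origin recognition complex (ORC), CDC6 and CDT1 load the ring-shaped MCM helicase onto DNA, a step called licensing. CDC45 and the GINS complex then activate the helicase, the polymerases copy the strands with the sliding clamp PCNA, and enzymes of nucleotide synthesis supply the building blocks. Many of these genes are transcribed at the passage from G1 to S phase under E2F transcription factors. Their RNA in a culture depends both on how many cells are in S phase and on the RNA per cell, and in bulk RNA fewer such cells and less RNA per cell cannot be told apart.

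Library totals ran from 11396193 counts in vehicle replicate 1 to 26030880 in rhSP-D replicate 1, and the lowest count of any of the 46 genes in any library was 35. Vehicle replicate 1, the shallowest library, stood apart on the first principal component of all genes (-38.2, against 3.59 to 12.3 in the other 5 libraries). Keratins KRT7, KRT8 and KRT18 were abundant, while the epithelial markers EPCAM and KRT19 had at most 51 counts a library. In CPM, which are counts scaled to the library's size, the summed level of the 5 epithelial markers was 11846 to 11976 in the vehicle libraries and 12363 to 12603 in the rhSP-D libraries, and its part in the results was not tested. Alveolar type II markers other than ABCA3 were nearly absent, with SFTPC, SFTPB and NKX2-1 at no more than 6 counts a library. CDKN2A, an inhibitor gene known to be deleted in A549, had at most 2. Of 6 leukocyte markers 5 had at most 11 counts a library, and the lysosomal gene CD68 carried nearly all of their sum, 81.2 to 86.5 CPM in the vehicle libraries against 89.8 to 95.2 CPM in the treated ones.

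Of the 46 genes, 8 passed the test: 6 were lower and 2 were higher in rhSP-D. The lower genes were RFC3, UHRF1, CDC6, MCM4, POLA1 and RRM2, with changes from -19.9% to -9.79%, and the higher genes were PCNA (9.25%) and DUT (8.01%). The test was edgeR's quasi-likelihood test with Benjamini-Hochberg adjustment over 15848 genes, called at an adjusted p under 0.05. The called share was 17.4%, close to the 15.9% of all tested genes that passed. By direction, 13% of the set were lower against 6.63% of all genes, and 4.35% were higher against 9.31%. At an unadjusted p under 0.05, 10 of the 46 were lower and 2 higher, where 28.1% of all genes reached that level, 13.3% lower and 14.8% higher. All 3 rhSP-D values lay below the 3 vehicle values for 12 of the 46 genes (26.1%, against 15.4% of all genes) and above them for 2 (4.35%, against 16.2%). The median log2 fold change of the 46 genes was -0.04, against -0.0063 over all genes tested, with 32 of the 46 (69.6%) below 0 against 51.6% of all genes. Scaling by library totals alone moved the median of all genes to -0.05 and that of the 46 to -0.09, with 40 of the 46 below 0. It gave 10 lower and 1 higher, so that higher genes went from 25% to 9.09% of those called. Over all genes the same change of scaling took higher genes from 58.4% to 30.4% of those called.

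Levels of the 8 genes by library and fold changes of all 46 by complex are plotted next.

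**Figure D1:**
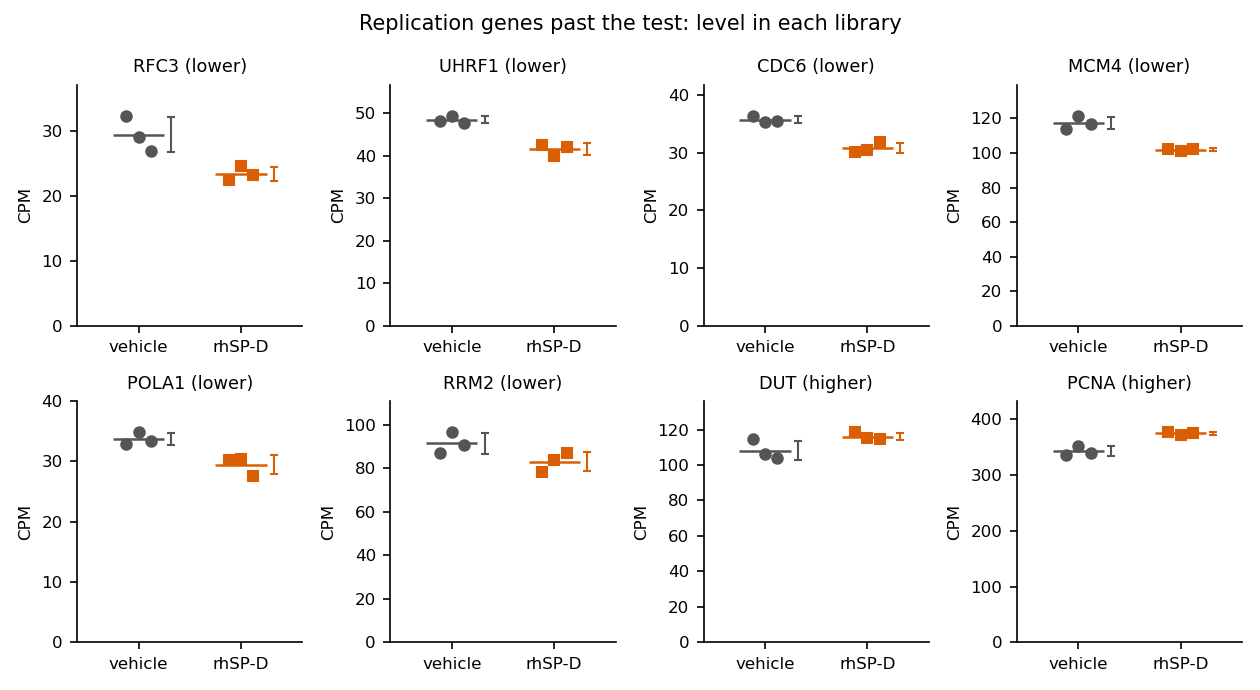
Level in CPM of the 8 replication genes that passed the test, in the 3 vehicle and the 3 rhSP-D libraries, with the mean and SD of each group and axes starting at 0. In all 8 panels the values of the groups do not overlap, and the changes are small against the level, from 8.01% for DUT to -19.9% for RFC3.

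**Figure D2:**
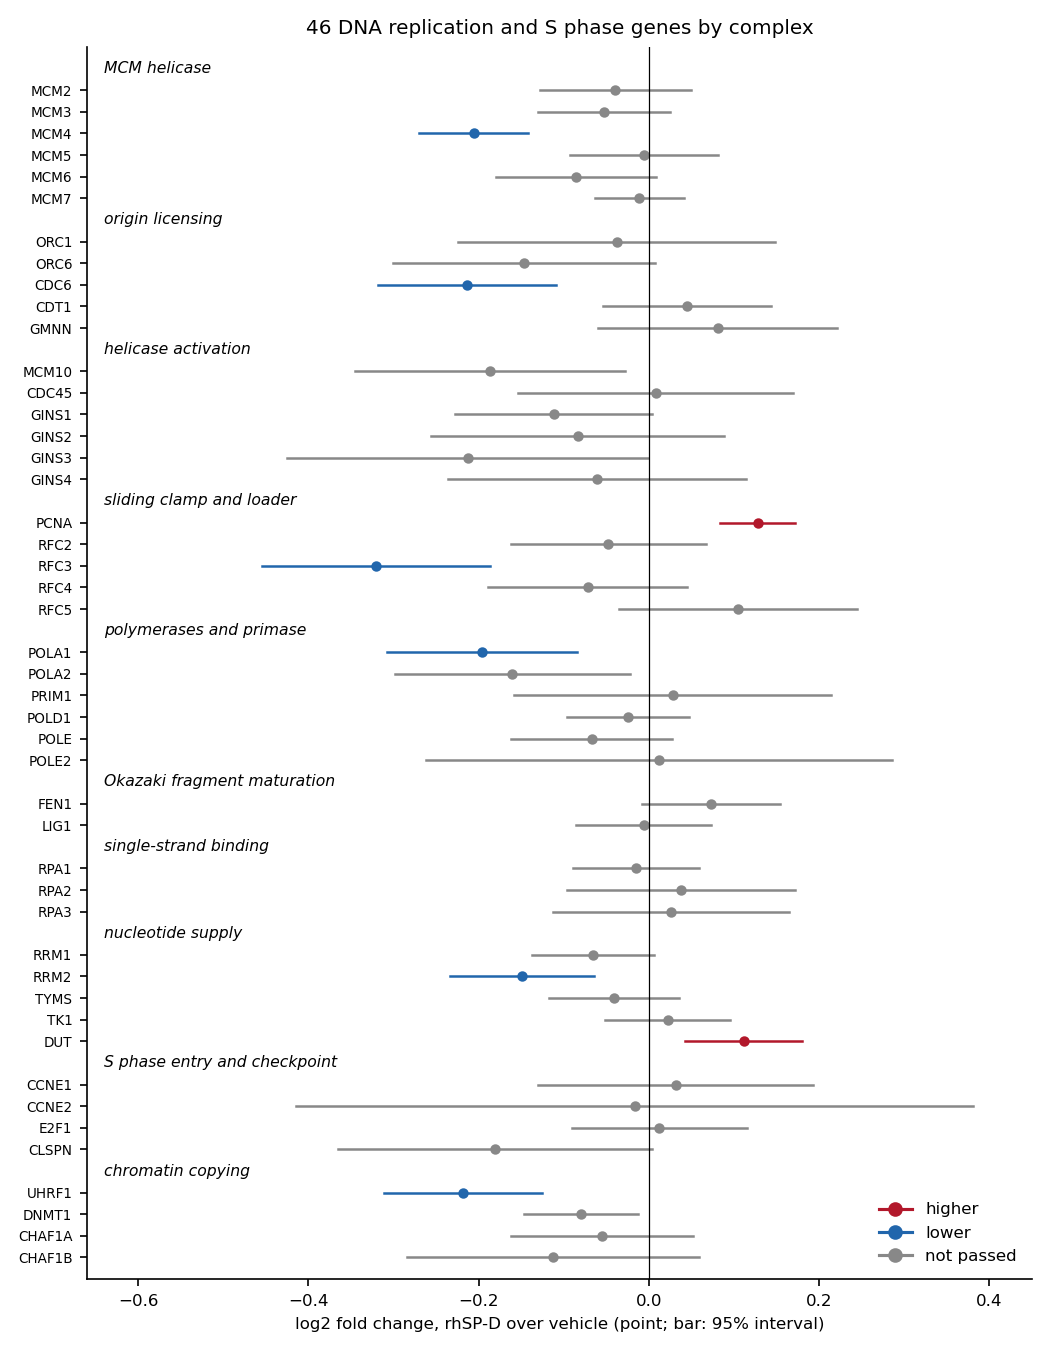
Log2 fold change of rhSP-D over vehicle for the 46 genes, grouped by complex, with 95% intervals as bars and colour for the 6 lower, 2 higher and 38 other genes. The 6 lower genes fall in 6 different groups, and the intervals of most other genes cross 0.

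Among the licensing factors 1 of 5 genes fell. Counts by group, here and below, are of few genes, and 6.63% of all genes tested were lower and 9.31% higher. CDC6, the ATPase that joins ORC at origins to load the helicase (ENSG00000094804, GRCh38 chromosome 17, 40287633 to 40304657), stood at 36.3, 35.4 and 35.5 CPM in vehicle and at 30.1, 30.4 and 31.8 CPM in rhSP-D. All 3 rhSP-D values lay below the vehicle values, with a gap wider than the range within either group. The mean went from 35.7 ± 0.545 to 30.8 ± 0.879 CPM (SD, n = 3), a log2 fold change of -0.21 ± 0.051 (SE, adjusted p = 0.00378). Its partner in loading, CDT1, was at a log2 fold change of 0.045 ± 0.048, and geminin (GMNN), the inhibitor of CDT1, at 0.081 ± 0.069. The ORC subunits ORC1 and ORC6 were at -0.038 ± 0.091 and -0.15 ± 0.075, and none of these 4 passed (adjusted p from 0.203 for ORC6 to 0.838 for ORC1). The rhSP-D values of ORC6 nevertheless all lay below its vehicle values.

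Fold changes of the 6 MCM subunits were all below 0, as were those of 51.6% of all genes, and MCM4 was the 1 subunit that passed. MCM4 (ENSG00000104738, GRCh38 chromosome 8, 47960185 to 47978160) stood at 114, 121 and 117 CPM in vehicle and at 102, 101 and 102 CPM in rhSP-D. The rhSP-D libraries were close to each other and lay below all vehicle libraries. Its mean went from 117 ± 3.69 to 102 ± 0.706 CPM (SD, n = 3), a change of -13.3% with a 95% interval of -17.1% to -9.36% and a log2 fold change of -0.21 ± 0.031 (SE, adjusted p = 2.17e-05). MCM7, with the most reads of the ring, stood at 205, 207 and 208 CPM in vehicle and at 199, 205 and 211 CPM in rhSP-D, which overlap, and its 95% interval was -4.29% to 2.87%. The remaining subunits MCM2, MCM3, MCM5 and MCM6 had log2 fold changes of -0.039, -0.053, -0.0055 and -0.086 and did not pass, although the 3 rhSP-D values of MCM6 lay below its vehicle values. The sign of MCM5 and MCM7 changed under some alternatives.

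Because MCM2 to MCM7 form 1 ring, their levels were also set against each other within each library, which does not depend on how libraries are scaled. Per kilobase of exon, MCM7 made up 41.1, 41.1 and 40.9% of the 6 subunits in the vehicle libraries and 41.8, 42.1 and 42.9% in the rhSP-D libraries. MCM4 made up 14.4, 15.2 and 14.5% in vehicle and 13.5, 13.1 and 13.1% in rhSP-D. Neither subunit's share overlapped between groups, MCM4's being lower and MCM7's higher in rhSP-D, while the shares of MCM2, MCM3, MCM5 and MCM6 overlapped. In CPM the values of 31.5% of all genes tested did not overlap. Shares still carry the length and GC trends described below. With those removed, the log2 fold change of MCM7 went from -0.011 to -0.057. MCM4 was then at -0.16, and MCM2, MCM3, MCM5 and MCM6 were at -0.081, -0.070, -0.016 and -0.046. A share shows unequal change within the ring and not which subunit changed, and levels per kilobase use all annotated exons, so a gene with long or unused exons reads low.

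**Figure D3:**
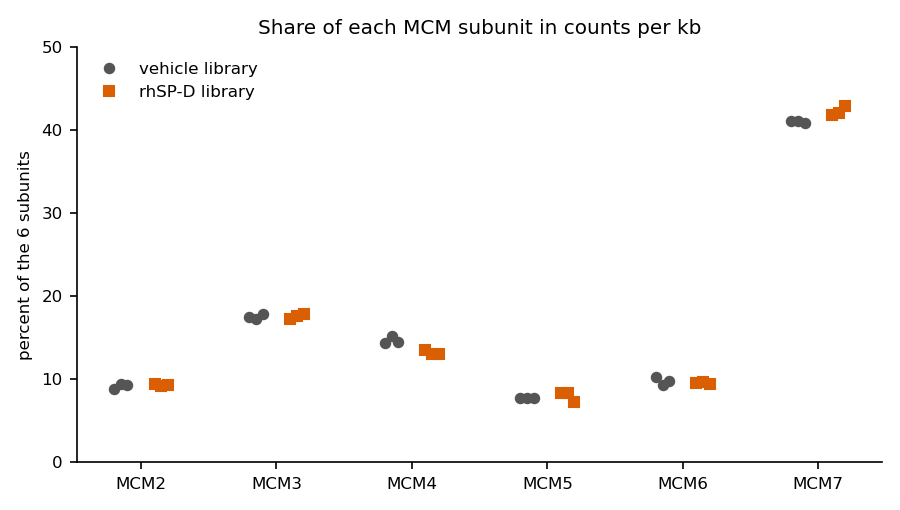
Share of each MCM subunit in the summed counts per kilobase of the 6 subunits, in percent, with a point for each vehicle and each rhSP-D library. MCM4 lies at 14.4% or more in vehicle and at 13.5% or less in rhSP-D, and MCM7 is the highest subunit in all 6 libraries.

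No gene of helicase activation passed edgeR's test, and DESeq2 and limma-voom called 0. DESeq2 gave no adjusted p for MCM10, CDC45, GINS2 and GINS3, so it could not call them. In edgeR 2 of 6 were lower at an unadjusted p under 0.05. Of all genes 13.3% were lower at that level and 28.1% reached it in either direction. MCM10, which helps to start the helicase, had the smallest p of the group. It stood at 17.7, 17.0 and 16.2 CPM in vehicle and at 14.8, 14.6 and 15.2 CPM in rhSP-D, with no overlap (log2 fold change -0.19 ± 0.078 SE, adjusted p = 0.105). MCM10 passed when libraries were thinned to the depth of the shallowest (-0.30, adjusted p = 0.0312) and under library totals alone (-0.23, adjusted p = 0.0404), in a range of 0.0312 to 0.398 over the alternatives. The GINS subunits GINS1, GINS2, GINS3 and GINS4 were at log2 fold changes of -0.11, -0.084, -0.21 and -0.061, with overlapping values in each, and CDC45 was at 0.0079 ± 0.079. Single libraries moved the GINS values: GINS1 was at -0.059 and GINS2 at -0.0029 without vehicle replicate 2, and GINS3 was at -0.11 without vehicle replicate 3 and at -0.33 without rhSP-D replicate 3. Exons of GINS3 and GINS4 overlap exons of the opposite strand over 558 and 1290 nt, and without strand in the counting the reads of such neighbours cannot be told apart.

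In the clamp and its loader, PCNA rose and RFC3 fell. PCNA, the clamp that holds polymerases on DNA (ENSG00000132646, GRCh38 chromosome 20, 5114953 to 5126626), stood at 335, 352 and 339 CPM in vehicle and at 376, 372 and 375 CPM in rhSP-D. Every rhSP-D library was above every vehicle library. The mean went from 342 ± 8.97 to 374 ± 2.22 CPM (SD, n = 3), a log2 fold change of 0.13 ± 0.021 (SE, adjusted p = 8.12e-05). Per length PCNA was the most abundant of the 46 genes, at a level of 233 RPKM (CPM per kilobase of exon) in vehicle against a median of 9.15 RPKM.

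RFC3, a subunit of the loader that opens the clamp (ENSG00000133119, GRCh38 chromosome 13, 33818049 to 33966558), had the lowest fold change of the 46 genes. It stood at 32.4, 29.2 and 26.9 CPM in vehicle and at 22.5, 24.6 and 23.2 CPM in rhSP-D. The vehicle libraries were spread more widely than the rhSP-D libraries, and the groups did not overlap. The mean went from 29.5 ± 2.72 to 23.4 ± 1.07 CPM (SD, n = 3), a log2 fold change of -0.32 ± 0.065 (SE, adjusted p = 7.85e-04). Of the other loader subunits, RFC2 and RFC4 were at -0.048 ± 0.056 and -0.072 ± 0.057 and RFC5 at 0.10 ± 0.068, and none of these 3 passed (adjusted p from 0.341 for RFC5 to 0.636 for RFC2).

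Of the 6 polymerase and primase genes 1 fell. POLA1, the catalytic subunit of polymerase alpha, which extends primers (ENSG00000101868, GRCh38 chromosome X, 24693919 to 24996986), stood at 33.0, 34.8 and 33.4 CPM in vehicle and at 30.3, 30.4 and 27.7 CPM in rhSP-D. The groups did not overlap. Its mean went from 33.7 ± 0.954 to 29.5 ± 1.57 CPM (SD, n = 3), a log2 fold change of -0.20 ± 0.055 (SE, adjusted p = 0.0126). This call ended when vehicle replicate 2 was left out (adjusted p = 0.0732), when rhSP-D replicate 3 was (adjusted p = 0.0837) and with DESeq2 (adjusted p = 0.0609), in a range of 0.00261 to 0.158. POLA2, its partner subunit, was at -0.16 ± 0.067 (adjusted p = 0.108, range 0.0360 to 0.554) and passed under library totals alone (-0.20, adjusted p = 0.0360) and without rhSP-D replicate 3 (-0.22, adjusted p = 0.0449). The primase subunit PRIM1 was at 0.028 ± 0.091. POLD1 and POLE, the catalytic subunits of polymerases delta and epsilon, were at -0.024 ± 0.035 and -0.067 ± 0.046. POLE2, another subunit of polymerase epsilon and a scarce transcript at 5.89 ± 0.375 CPM in vehicle (SD, n = 3), had a 95% interval of -16.6% to 21.9%.

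Genes of Okazaki fragment maturation and of single-strand binding did not pass in edgeR, DESeq2 or limma-voom, and 0 of these 5 had an unadjusted p under 0.05 in any of the 3. FEN1, the flap nuclease that trims Okazaki fragments, stood at 64.5, 60.8 and 60.0 CPM in vehicle and at 64.4, 65.5 and 64.1 CPM in rhSP-D, with overlap. The ligase LIG1 had a 95% interval of -5.75% to 5.19%. RPA1, RPA2 and RPA3 make up the trimer that coats single-stranded DNA. RPA2, with the smallest p of the trimer, stood at 22.8, 22.6 and 21.8 CPM in vehicle and at 22.1, 24.4 and 22.6 CPM in rhSP-D. These values overlapped, and the 95% intervals of RPA1 (-5.95% to 4.12%), RPA2 (-6.44% to 12.6%) and RPA3 (-7.54% to 12.1%) all held 0.

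Nucleotide supply had 1 gene lower and 1 higher among 5. RRM2, the small subunit of ribonucleotide reductase, which makes deoxyribonucleotides (ENSG00000171848, GRCh38 chromosome 2, 10120698 to 10131419), stood at 87.3, 96.5 and 90.7 CPM in vehicle and at 78.3, 84.1 and 86.9 CPM in rhSP-D. The highest rhSP-D library lay just under the lowest vehicle library. The mean went from 91.5 ± 4.66 to 83.1 ± 4.38 CPM (SD, n = 3), a log2 fold change of -0.15 ± 0.041 (SE, adjusted p = 0.0137). The call ended at an adjusted p of 0.116 once vehicle replicate 2 was left out and of 0.129 once rhSP-D replicate 1 was left out, in a range of 0.00150 to 0.129. RRM1, the large subunit of the same enzyme, was at -0.066 ± 0.035 (adjusted p = 0.225, range 0.0321 to 0.809), with all rhSP-D values below the vehicle values, and it passed under library totals alone (-0.11).

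DUT, the enzyme that removes dUTP so that uracil is not built into DNA (ENSG00000128951, GRCh38 chromosome 15, 48331011 to 48343373), stood at 114, 106 and 104 CPM in vehicle and at 118, 115 and 115 CPM in rhSP-D. The lowest rhSP-D library was just above the highest vehicle library. The mean went from 108 ± 5.55 to 116 ± 2.003 CPM (SD, n = 3), a log2 fold change of 0.11 ± 0.033 (SE, adjusted p = 0.0211). The call did not hold if vehicle replicate 2 (adjusted p = 0.0781), vehicle replicate 3 (0.182) or rhSP-D replicate 1 (0.130) was left out. Nor did it hold with DESeq2 (adjusted p = 0.0715) or library totals alone (0.156), in a range of 0.00340 to 0.182. DUT exons overlap the opposite strand over 533 of 3674 nt. Its 8 pseudogenes in the table each held at most 0.133% of the DUT count, and how reads with several matches were counted is not stated. TYMS, which makes thymidylate, and TK1, the thymidine kinase of S phase, were at log2 fold changes of -0.041 ± 0.037 and 0.022 ± 0.036 and did not pass.

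Regulators of S phase entry did not pass, with 0 of 4 genes at an unadjusted p under 0.05 in edgeR, DESeq2 or limma-voom. E2F1, a transcription factor for many of these genes, stood at 35.6, 34.5 and 35.7 CPM in vehicle and at 35.2, 36.9 and 34.7 CPM in rhSP-D, with overlap and a 95% interval of -6.08% to 8.30%. CCNE1, which encodes cyclin E1, had an interval of -8.60% to 14.3%. CCNE2 was the scarcest of the 46 genes, at 2.75 ± 0.254 CPM in vehicle (SD, n = 3), and its interval of -25.0% to 30.2% is the widest, so small changes were not detectable at this depth. CLSPN encodes claspin, an adaptor of the replication checkpoint. It stood at 12.2, 12.4 and 14.4 CPM in vehicle and at 11.9, 11.1 and 11.6 CPM in rhSP-D, without overlap (log2 fold change -0.18 ± 0.090 SE, adjusted p = 0.187).

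Of 4 genes that copy chromatin and its methylation 1 fell. The fold changes of all 4 were below 0, as were those of 51.6% of all genes. UHRF1, which recognises DNA methylated on 1 strand and brings the methyltransferase DNMT1 to it (ENSG00000034063, GRCh38 chromosome 19, 4903080 to 4962154, placed by symbol), stood at 48.3, 49.4 and 47.8 CPM in vehicle and at 42.5, 40.0 and 42.2 CPM in rhSP-D. The groups did not overlap. Its mean went from 48.5 ± 0.803 to 41.6 ± 1.35 CPM (SD, n = 3), a log2 fold change of -0.22 ± 0.045 (SE, adjusted p = 9.29e-04). DNMT1 stood at 94.8, 95.3 and 97.5 CPM in vehicle and at 92.5, 90.0 and 89.7 CPM in rhSP-D, also without overlap, but did not pass (-0.079 ± 0.033 SE, adjusted p = 0.101). Under library totals alone DNMT1 passed (-0.12, adjusted p = 0.00995, in a range of 0.00995 to 0.412). CHAF1A and CHAF1B, subunits of the histone chaperone that places new nucleosomes behind the fork, were at -0.055 ± 0.052 and -0.11 ± 0.083.

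For the 38 genes that did not pass, the data set limits on a change between these groups of libraries. The 95% interval of 25 of them lay within 15% of no change in both directions, and that of 36 lay within 25%. These intervals rest on library-to-library spread, which over all genes was 2.51% beyond counting noise. If the triplicates are technical, they do not bound a change across cultures. The intervals are not adjusted for the number of genes. They also hold for TMM scaling without removal of the length and GC trends, described below, and other settings can give values outside them. The log2 interval of TK1 was -0.051 to 0.095, and its log2 fold change with those trends removed was -0.090.

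Summed over genes, the level of a complex differed by a few percent. The 46 genes together held 2428, 2460.5 and 2442 CPM in the vehicle libraries and 2399.6, 2399 and 2418 CPM in the rhSP-D libraries, a difference of -1.55% between the means. The MCM ring went from a summed 560.3 ± 5.93 to 537 ± 6.49 CPM with treatment (SD, n = 3), a difference of -4.15%, and the chromatin group differed by -7.44%. Licensing factors (-3.43%) and polymerases and primase (-4.84%) were also lower in each rhSP-D library than in each vehicle library. Each of these lower groups holds 1 gene that passed: MCM4, UHRF1, CDC6 and POLA1. Fold changes were above 0 for 2 of 5 licensing genes and 2 of 6 polymerase and primase genes, so a lower sum does not mean that each gene fell. The clamp and loader group was higher in each rhSP-D library (5.51%), with PCNA taking most of its reads. This sum does not describe the loader. RFC2, RFC3 and RFC4 had log2 fold changes below 0 (-0.048, -0.32 and -0.072), and RFC5 was above 0 (0.10). The sums of the other 5 groups overlapped between vehicle and rhSP-D. These sums are descriptions with no test, and they depend on the scaling. Under library totals alone the difference was -4.31% for the 46 genes, -6.83% for the MCM ring, -6.14% for licensing, -7.51% for polymerases and primase and -10.0% for chromatin. It was 2.56% for the clamp and loader, whose values then overlapped, and -0.918% for Okazaki fragment maturation, against 1.94% with TMM. Single-strand binding went from 0.291% to -2.52%. Helicase activation (-9.10%), nucleotide supply (-3.92%) and S phase entry (-4.13%) were then lower in each rhSP-D library.

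**Figure D4:**
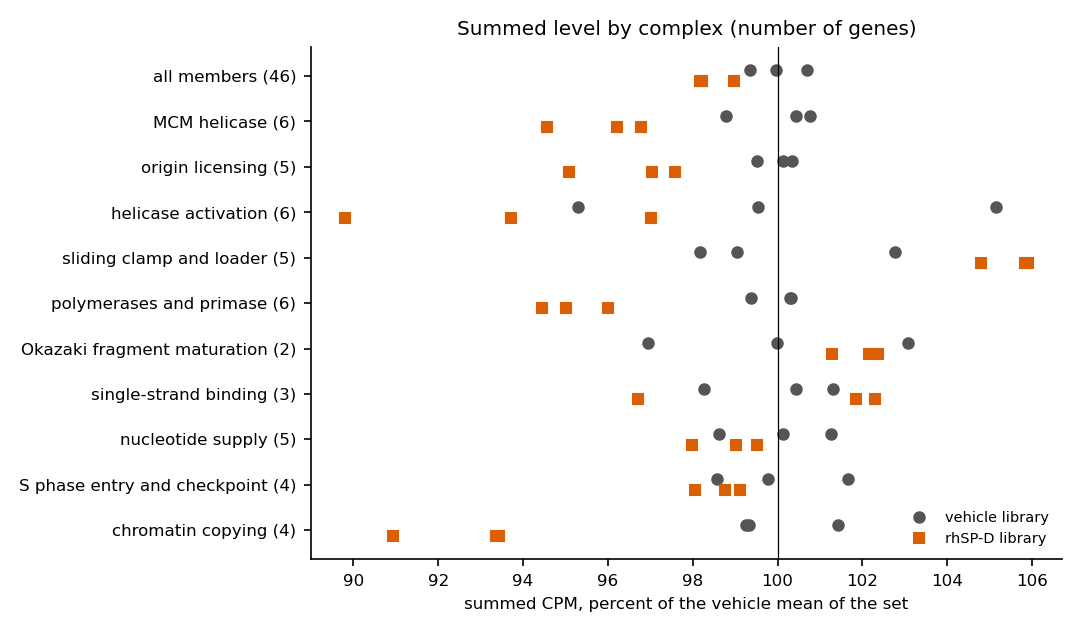
Summed TMM-scaled CPM of each complex in each library, as a percent of the vehicle mean of that complex, with a point for each vehicle and each rhSP-D library. The MCM, licensing, polymerase and chromatin groups lie wholly lower in rhSP-D. The clamp and loader group, most of whose reads are from PCNA, lies wholly higher.

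Fold changes of all genes followed gene length and GC content, and the calls in the set followed these trends in part. In the shortest quartile of tested genes, up to 2798 nt of exon, the median log2 fold change was 0.08, and in the longest it was -0.07. It was -0.07 in the quartile lowest in GC and 0.06 in the highest. PCNA, at 1471 nt, belongs to the shortest quartile. MCM4, CDC6, POLA1, RRM2 and UHRF1 all belong to the next to longest, up to 7136 nt, where the median over all genes was -0.02 and the median of 15 replication genes was -0.16. RFC3, at 2874 nt, and DUT, at 3674 nt, shared the quartile in between, where the median over all genes was 0.02. By GC, PCNA and DUT lay in the same quartile as MCM4, CDC6, POLA1 and RRM2, with a median over all genes of -0.03, and UHRF1 lay in the next higher one, with a median of 0.02. RFC3, with 39.1% GC, was in the quartile lowest in GC, and 0 of the 8 replication genes in the quartile highest in GC passed.

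With the trends on length and GC removed from each library, 4 genes were lower and 2 higher, all among the 8. Over all 15551 genes of this fit, 486 were lower and 1077 higher. The log2 fold changes became -0.16 for MCM4, -0.17 for CDC6, -0.30 for RFC3, -0.24 for UHRF1, 0.091 for PCNA and 0.14 for DUT. POLA1 (-0.13, adjusted p = 0.150) and RRM2 (-0.10, adjusted p = 0.119) no longer passed. With the trends fitted on genes of at least 200 counts on average, an alternative chosen after seeing the data, PCNA was at 0.060 and missed the threshold (adjusted p = 0.0506, in a range of 5.04e-07 to 0.0506). The median of the 46 genes was -0.06 after the correction, against 8.44e-04 over all genes. MCM4, RFC3 and UHRF1 passed under all 18 alternatives run for single genes.

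**Figure D5:**
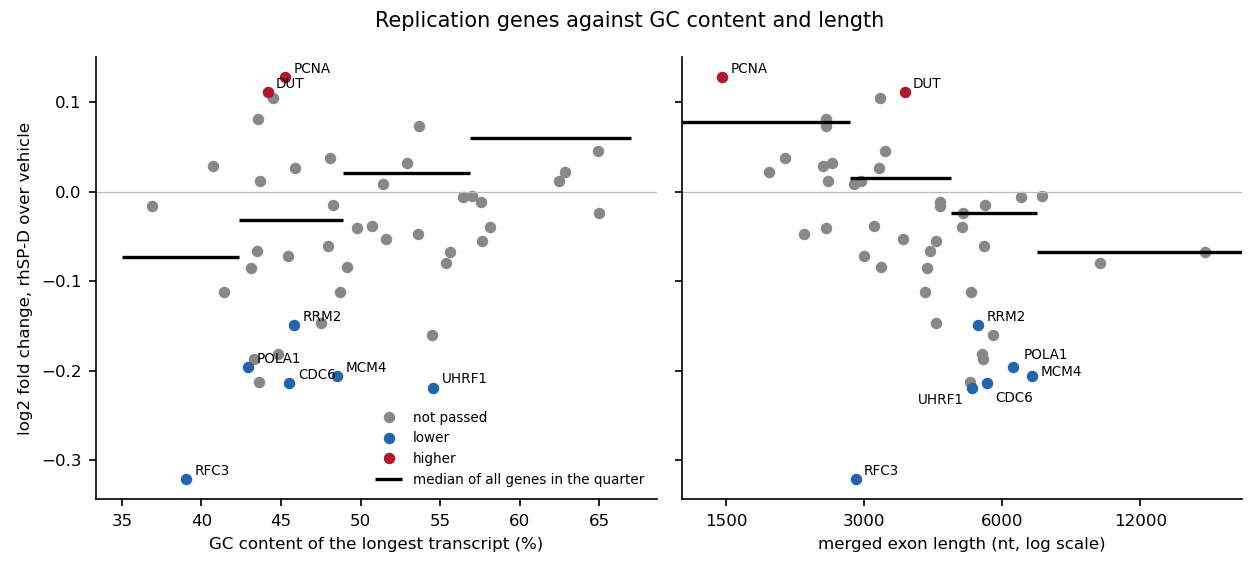
Log2 fold change of the 46 genes against GC content in percent and against exon length in nt on a log scale, with colour for lower, higher and other genes. Lines give the median of all tested genes in each quartile of the property: it rises with GC from -0.07 to 0.06 and falls with length from 0.08 to -0.07.

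The start regions of genes that passed were set side by side because E2F factors are known to drive many genes of this kind. RefSeq windows on GRCh38.p14, from 250 bases before to 50 bases after each annotated start, were found for 40 of the 46 genes, in 54 windows. MCM4, MCM5, GINS4, RPA2, RPA3 and CCNE2 were not matched. Both strands were searched for E2F-type words of 4 kinds. The best known of these is TTCCCGC, as found in several promoters of this group. Its relative TTGGCGC differs in the middle of the word and was searched too. The remaining kinds were TTCGCGC, which is rich in CpG, along with a form spelled TTGCCGC in the same orientation. The CCAAT box, the word bound by NF-Y, was searched in the same way, and it may overlap an E2F-type word. An E2F-type word was present in 36 of the 54 windows (66.7%), against 13% of all 35116 windows, and CCAAT in 30 (55.6%), against 34.6%. A word was found in at least 1 window of each of the 5 lower genes with an entry, of both higher genes, and of 27 of the 33 genes that did not pass. A match is a run of letters and not a bound site.

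The following stretches run 5′ to 3′ on the gene's strand around an annotated start, with E2F-type words of either strand in capitals. They are shown for 3 genes that fell and 2 that rose, so that the same kind of word can be seen in both.
RFC3, chr13:33818024-33818173 (plus strand): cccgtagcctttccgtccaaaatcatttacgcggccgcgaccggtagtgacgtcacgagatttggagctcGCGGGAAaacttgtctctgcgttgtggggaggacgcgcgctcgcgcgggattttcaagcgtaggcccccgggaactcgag
CDC6, chr17:40287754-40287903 (plus strand): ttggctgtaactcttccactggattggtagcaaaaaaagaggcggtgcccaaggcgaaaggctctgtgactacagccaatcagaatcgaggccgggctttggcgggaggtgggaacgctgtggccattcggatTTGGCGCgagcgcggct
UHRF1, chr19:4909376-4909525 (plus strand): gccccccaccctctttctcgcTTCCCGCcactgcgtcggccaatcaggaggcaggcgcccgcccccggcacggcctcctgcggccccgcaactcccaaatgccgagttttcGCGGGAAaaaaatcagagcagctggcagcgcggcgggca
PCNA, chr20:5126598-5126747 (minus strand): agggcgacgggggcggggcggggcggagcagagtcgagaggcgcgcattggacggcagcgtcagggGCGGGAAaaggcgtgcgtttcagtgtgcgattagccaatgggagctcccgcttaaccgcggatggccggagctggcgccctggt
DUT, chr15:48332072-48332221 (plus strand): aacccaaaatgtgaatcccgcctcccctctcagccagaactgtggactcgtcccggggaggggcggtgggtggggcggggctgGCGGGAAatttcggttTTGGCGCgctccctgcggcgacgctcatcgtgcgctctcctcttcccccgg
Counted from 0 at the first transcribed base, the word begins at -55 in RFC3, at 8 in CDC6, at -104 and -14 in UHRF1, at -59 in PCNA and at -42 and -26 in DUT. PCNA, UHRF1 and DUT have further annotated starts, and of the 4 DUT windows 1 holds such a word. The counts are per gene and do not say which start was used. RRM2 had 3 CCAAT words and no E2F-type word in 1 of its windows and an E2F-type word at -192 in the other.

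Replication and cell cycle genes outside the set gave counts of a similar kind before the length and GC trends were removed. Their list also holds inhibitors and repressors, such as CDKN1A, CDKN1B, RB1 and RBL1. Of 72 such genes, 3 were higher and 7 lower (13.9% called, against 15.9% of all genes), and their median log2 fold change was -0.06. Library totals alone gave 2 higher and 19 lower, where all genes gave 856 and 1961. Removal of the length and GC trends gave 4 higher and 2 lower, where all genes gave 1077 and 486. The median of the 72 genes was then -0.018, against -0.063 for the 46. NASP and SSRP1, which had not passed before this correction, were then higher, at log2 fold changes of 0.16 and 0.068. ATAD2, a chromatin ATPase, fell by 20.1% (adjusted p = 2.78e-05) and TIMELESS, which protects the fork, fell by 11.9% (adjusted p = 0.00146), and both still passed after the correction. TICRR, which acts in origin firing, fell by 16.4%, the nuclease EXO1 fell by 16.2% and the primase subunit PRIM2 fell by 20.05%. MCMBP, a binding protein of the MCM complex, fell by 8.35% and RBL1, a retinoblastoma-like repressor of E2F genes, fell by 18.2%. None of these last 5 passed after the correction, at log2 fold changes that went from -0.26 to -0.23 for TICRR, from -0.26 to -0.21 for EXO1, from -0.32 to -0.27 for PRIM2, from -0.29 to -0.22 for RBL1 and from -0.13 to -0.059 for MCMBP.

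The 3 genes higher before the correction were CDKN1A, POLD4 and CDK4. CDKN1A encodes p21, an inhibitor of cyclin-dependent kinases that also binds PCNA, and stood at 130.4, 127 and 129 CPM in vehicle and at 145, 143 and 149.6 CPM in rhSP-D, without overlap (log2 fold change 0.18 ± 0.028 SE, adjusted p = 4.45e-05). POLD4, the smallest subunit of polymerase delta, rose by 14.8% and the G1 kinase CDK4 by 6.56%. After the correction CDKN1A and POLD4 passed at log2 fold changes of 0.11 and 0.13, and CDK4 did not.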

How the data were processed

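Poly(A) RNA of 6 A549 libraries was sequenced in read pairs from NEBNext Ultra libraries, per the labels' protocols. The submitters' processing notes name cutadapt, STAR 2.7.0a, featureCounts 2.0.0 and GRCh38 (hg38). No source used here gives the annotation release, the strand setting or the handling of reads with several matches. The authors deposited raw whole-number counts per gene. The 46 genes, the groups and the lists were chosen with earlier results of these data known.

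Libraries were grouped by title. In R 4.3.3, edgeR 4.0.16 kept genes by filterByExpr (count of 10, total of 15), scaled by TMM and tested 2-sided with a robust quasi-likelihood fit; the procedure was tested on simulated data. CPM use TMM-scaled library sizes, fold changes are rhSP-D over vehicle, and SEs come from the test statistic. Values are given for each library of every gene of the 46 that passed and, in groups with none, of the gene with the smallest p; of the 72 other genes those that passed are named by their change; further library values (MCM7, E2F1, DNMT1, CDKN1A) were added after their values were seen.

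Exon lengths, GC content and coordinates are from GENCODE 29, matched by ID for 45 of the 46 genes and by symbol for UHRF1. The length and GC correction enters natural splines with 5 degrees of freedom, fitted per library, as offsets, over the 98.1% of tested genes with both values. Other alternatives were DESeq2 1.42.0, limma-voom (limma 3.58.1), 3 other scalings, 2 filters, a replicate block, thinning, a threshold of 0.01 and each library left out. Pairs of libraries differed by more than sampling noise, with a chi-square of at least 1.90 for each degree of freedom.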

Additional observations from a re-analysis of the deposited data

How the results depend on the processing

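Calls of 5 of the 8 replication genes depended on scaling, on length and GC trends, on the tool or on single libraries. Lower genes of the set numbered 6 and higher genes 2. Library totals alone gave 10 and 1, the correction with the replicate block gave 3 lower, and DESeq2, the threshold of 0.01 and the correction fitted on abundant genes each gave 1 higher. With 1 library left out the ranges were 4 to 6 lower and 1 to 2 higher. For the 72 other genes, 7 lower became 19 with library totals, 2 with DESeq2 and with each of the 3 forms of the correction, 4 when thinned and 3 at the threshold of 0.01, with 3 to 9 when 1 library was left out. DESeq2 gave no adjusted p to some genes, among them ORC1, ORC6 and MCM10, and these were counted as not called. Part of its lower counts, here and over all genes, may be genes it could not call. Over all genes, 1475 higher and 1051 lower became 856 and 1961 with library totals and 939 and 526 at the threshold of 0.01. Lower genes were 518 with DESeq2 and 486, 411 and 458 with the correction alone, with the block and on abundant genes. With 1 library left out they ran from 636 (without rhSP-D replicate 1; 643 without vehicle replicate 3) to 892. TMM factors did not overlap between groups, at 1.011 to 1.017 in the vehicle libraries and 0.985 to 0.987 in the rhSP-D libraries. The choice between TMM and library totals therefore shifts the groups against each other. The cause of the differences between settings was not tested.

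Same-numbered libraries did not visibly deviate together (correlations of -0.079, -0.068 and 0.027). These values cannot show whether same-numbered libraries were handled together, and the titles do not say. The replicate block gave 6 lower and 2 higher in the set, the same 8 genes, and over all genes 1374 higher and 945 lower. CDC6 lost its call under the block with the correction (adjusted p = 0.0525, range 7.17e-04 to 0.0525).

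Sign changes among the 46 genes were in genes that did not pass, with log2 fold changes near 0. Thinning, run as 1 random draw, turned MCM5 (0.032), ORC1 (0.019), POLD1 (0.0096), POLE2 (-0.0063), CCNE1 (-0.042) and CCNE2 (0.0053). Library totals alone turned CDC45 (-0.033), PRIM1 (-0.013), POLE2 (-0.029), RPA2 (-0.0035), RPA3 (-0.015), TK1 (-0.019), CCNE1 (-0.0096) and E2F1 (-0.029). limma-voom turned POLE2 (-3.8e-04). The correction turned CDT1 (-0.027), CDC45 (-0.023), RPA1 (0.017), TK1 (-0.090), CCNE1 (-0.019), CCNE2 (0.031) and E2F1 (-0.081). The correction with the replicate block turned CDT1 (-0.031), CDC45 (-0.022), RPA1 (0.019), TK1 (-0.096), CCNE1 (-0.021), CCNE2 (0.024) and E2F1 (-0.079). The correction fitted on abundant genes turned MCM5 (3.2e-04), CDT1 (-0.021), CDC45 (-0.034), RPA1 (0.011), RPA2 (-0.019), TK1 (-0.095), CCNE1 (-0.027), CCNE2 (0.041) and E2F1 (-0.081). With 1 library left out, the range crossed 0 for MCM5 (-0.035 to 0.042), MCM7 (-0.034 to 0.010), ORC1 (-0.13 to 0.027), CDC45 (-0.044 to 0.095), GINS4 (-0.16 to 0.024), PRIM1 (-0.051 to 0.093), POLE2 (-0.036 to 0.084), LIG1 (-0.038 to 0.018), RPA1 (-0.046 to 0.0057), RPA2 (-0.0046 to 0.070), RPA3 (-0.035 to 0.082), TK1 (-0.013 to 0.046), CCNE2 (-0.073 to 0.049) and E2F1 (-0.013 to 0.028).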
